A study of Mus musculus with 4 samples.

Results

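This account concerns 10 genes of iron uptake, storage and export in the mouse heart, chosen by name from the 38355 genes of the deposited count table: Tfrc, Slc11a2, Fth1, Ftl1, Slc40a1, Hamp, Hfe2, Hmox1, Ireb2 and Aco1. Of these, 9 had enough counts to be tested, and Hamp did not. RNA was taken from the free wall of the left ventricle in 4 mice of the same parents that had no treatment, 1 library per mouse. Transgenic (TG) mice carried VSFP2.3, a fluorescent voltage sensor that the series title describes as targeted to cardiomyocytes, and wild-type (WT) mice did not. WT 1 and TG 1 were males of 35 weeks and WT 2 and TG 2 females of 19 weeks, so sex and age cannot be told apart, and each genotype has 1 mouse of each kind. Neither the strain, the transgene's promoter nor the number of transgenic lines is given in the sources used here, and the study's stated purpose was to look for toxicity of the transgene in the heart. Gene totals ranged from 14158440 to 16762713 counts per library. Levels are given in counts-per-million units (CPM), relative to the summed counts of the 14189 tested genes after scaling by trimmed means (TMM).

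Cells take up iron mainly as transferrin bound to the transferrin receptor, and a metal transporter then moves the iron out of the endosome. Iron that is not used at once is kept inside ferritin, and ferroportin is the known route of iron out of the cell. The iron regulatory proteins bind hairpins in messenger RNAs, the iron-responsive elements, when the cell is short of iron. Binding in the 5′ untranslated region (UTR) blocks translation, while binding in the 3′ UTR of the transferrin receptor message protects it from decay. Cardiomyocytes use much iron in their mitochondria, where iron-sulfur clusters and haem are made.

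Iron-responsive elements of the members that match a fixed pattern are printed, because the textbook control of these genes runs through such elements. A 3′ element acts on the RNA level, and a 5′ element on translation, which RNA counts do not show. They were found in the GENCODE vM21 transcripts (assembly mm10) on the transcript strand as a match to CNNNNNCAGTGN in a UTR, followed by 5 bases that can pair with the 5 bases before the loop, counting G with T as a pair. Capitals mark the bulged C and the loop.
Tfrc 3′ UTR, chr16:32631219-32631247, plus strand: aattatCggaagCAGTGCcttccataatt
Tfrc 3′ UTR, chr16:32631598-32631626, plus strand: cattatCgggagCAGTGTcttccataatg
Tfrc 3′ UTR, chr16:32631663-32631691, plus strand: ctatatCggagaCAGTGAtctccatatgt
Tfrc 3′ UTR, chr16:32631710-32631738, plus strand: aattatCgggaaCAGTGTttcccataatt
Fth1 5′ UTR, chr19:9982732-9982760, plus strand: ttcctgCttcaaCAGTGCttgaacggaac
Ftl1 5′ UTR, chr7:45459779-45459807, minus strand: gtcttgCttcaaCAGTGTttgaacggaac
Slc40a1 5′ UTR, chr1:45925465-45925493, minus strand: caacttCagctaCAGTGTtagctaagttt
Slc11a2 3′ UTR, chr15:100395153-100395181, minus strand: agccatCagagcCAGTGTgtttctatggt
All 5 stem bases could pair in the first 7 of these, and 4 of 5 in Slc11a2, where the element lies only in the transcript Slc11a2-205. A match with 5 pairs was present in 4 of the 10 members and in 175 of 22527 protein-coding genes (0.777%). With at least 4 pairs it was present in 5 of the 10 members and in 1211 genes (5.38%). With at least 4 pairs the pattern matched no UTR of Hamp, Hfe2, Hmox1, Ireb2 or Aco1, which says only that no such match is there. Elements with another loop or fewer pairs would be missed in any member, so the set printed for Tfrc may also be incomplete. Whether the proteins bind these sites in these hearts was not measured.

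Per kilobase of the principal transcript, the members ranked from ferritin heavy chain down to hepcidin. Fth1 stood highest, at 299 to 396 CPM per kilobase in the 4 libraries and above every other member in all of them. Hfe2 was second, at 85.1 to 96.1. Ftl1 followed at 41.4 to 68.1 CPM per kilobase, and Tfrc at 26.8 to 87.3. The ranges of Ftl1 and Tfrc overlapped, Tfrc in TG 2 reached into the range of Hfe2, and Ftl1 and Tfrc traded places when the length of all exons was used instead. Aco1 lay at 13.6 to 15.4 CPM per kilobase, just above Slc11a2, whose highest library had 13.2. Ireb2 at 7.47 to 12.2, Hmox1 at 5.50 to 8.99 and Slc40a1 at 1.60 to 9.01 overlapped with at least 1 neighbour each. With the length of all exons, Hmox1 moved up to sixth and Slc11a2 down to eighth.

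The labelled tissue was checked against markers. The 8 cardiomyocyte markers summed to 58452 to 76342 CPM in every library. WT 2, the wild-type female, stood apart in that it held transcripts of the atrial genes Myl7 (71.1 CPM), Myl4 (75.6 CPM) and Sln (19.1 CPM), none of which was above 1.16 CPM in the other 3. The other 3 of the 6 atrial markers did not single it out: Nppa was lowest in WT 2 (1057 CPM against 1556 to 4228), and so was the sum of the list (1255 against 1601 to 4264 CPM), while Tbx5 and Nr2f2 lay within the range of the other libraries. Protein-coding genes also took 89.9% of all its gene counts, against 96.7% to 97.4% elsewhere. A second split joined WT 1 and TG 2 against WT 2 and TG 1, with 18 macrophage markers summing to 1603 to 2039 CPM in the first pair and 359 to 384 CPM in the second. In tissue RNA, fewer cells of a type and less RNA per cell cannot be told apart.

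No member differed between TG and WT hearts beyond the spread within the groups. For each of the 9 tested members, the range of the TG libraries overlapped that of the WT libraries, so 0 of 9 were separated, whereas 21% of all tested genes were. None of the 9 passed edgeR's quasi-likelihood test at an adjusted p of 0.05 (0 of 9, background 0%), and none had an unadjusted p under 0.05 (background 0.698%). Across the members the median log2 fold change was 0.02, with 6 of 9 above 0, against a median of -0.01 over all tested genes. With 2 mice per genotype an exact permutation test of a single gene cannot go below 0.333.

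**Figure D1:**
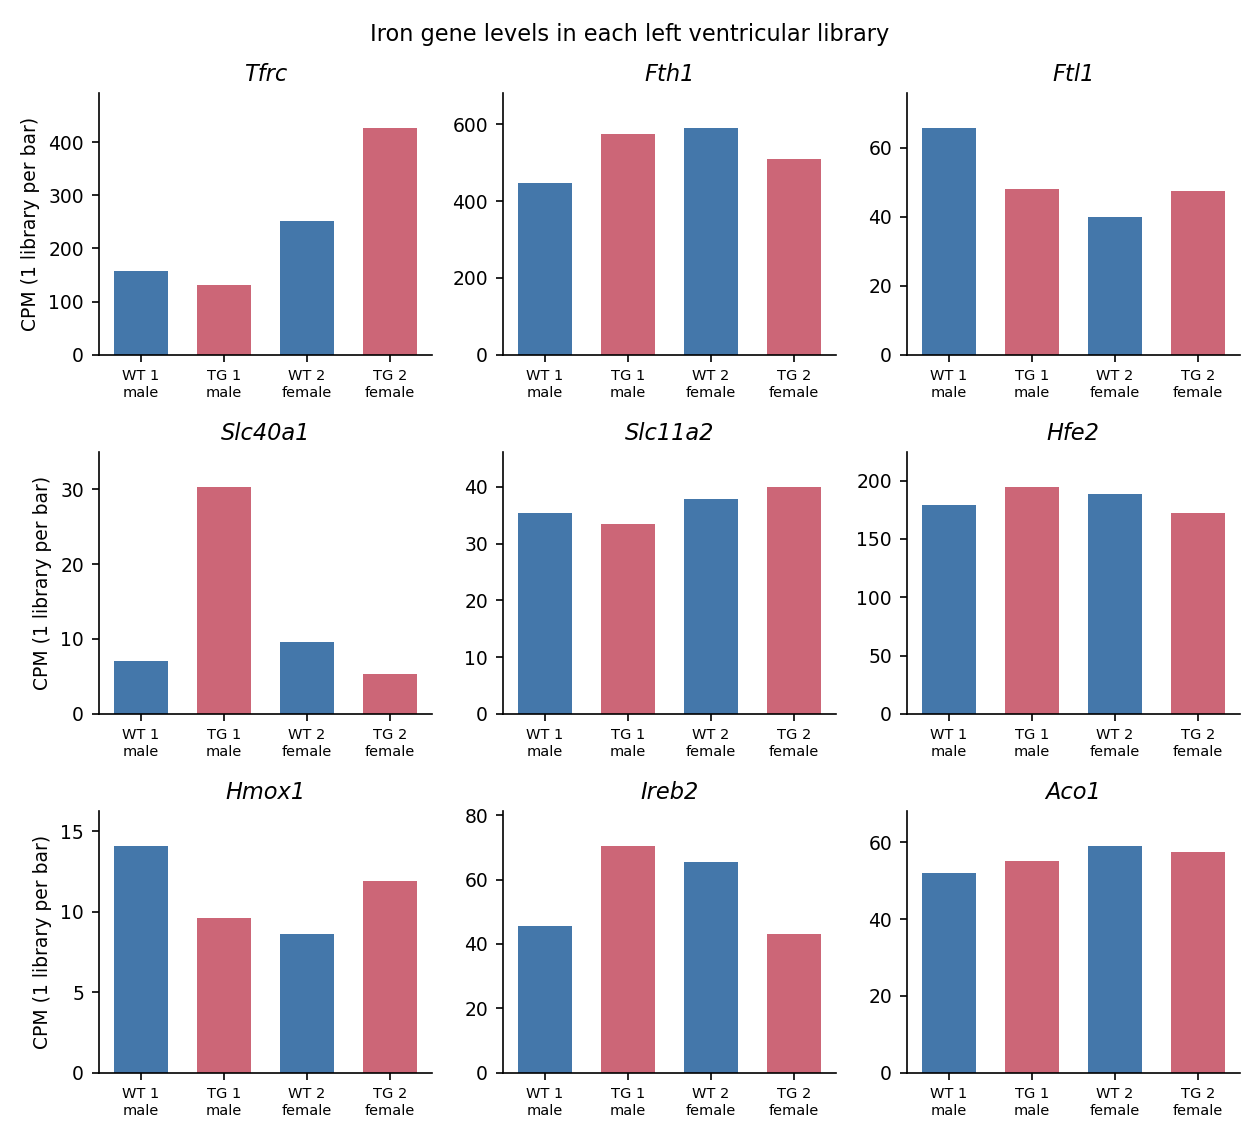
Level of each member in each of the 4 libraries, in CPM on an axis that starts at 0, 1 panel per gene. Each bar is 1 library, so there are no error bars. Slc40a1 stands out in TG 1 (30.4 CPM) and Tfrc in TG 2 (427 CPM), while Slc11a2, Hfe2 and Aco1 are nearly level.

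Among the uptake genes, Tfrc (ENSMUSG00000022797, chr16:32608920-32632794, plus strand) encodes transferrin receptor 1. Its level was 158 CPM in WT 1, 252 in WT 2, 131 in TG 1 and 427 in TG 2. The transgenic female was highest and the transgenic male lowest, with both WT libraries between them. WT averaged 205 ± 66.3 CPM and TG 279 ± 209 (SD, n = 2 each), and the log2 fold change was 0.45 ± 0.59 (SE), with a 95% interval of -1.08 to 1.97. That sign depended on TG 2, since without that library the value was -0.64. Slc11a2 (ENSMUSG00000023030, chr15:100387898-100425072, minus strand) encodes the divalent metal transporter DMT1, which carries ferrous iron out of endosomes. It measured 35.4 and 37.9 CPM in WT and 33.4 and 40.0 CPM in TG, so the TG libraries enclosed the WT ones. The log2 fold change of Slc11a2 had a 95% interval of -0.40 to 0.41, from a fit to 2 mice per genotype.

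Ferritin is a shell of heavy chains, which oxidise ferrous iron, and light chains, which help the mineral core to form. The heavy chain Fth1 (ENSMUSG00000024661, chr19:9980598-9985098, plus strand) was at 447 CPM in WT 1, 591 in WT 2, 574 in TG 1 and 511 in TG 2. Both TG values fell between the WT values, and the log2 fold change was 0.06 ± 0.19 (95% interval -0.43 to 0.56). The light chain Ftl1 (ENSMUSG00000050708, chr7:45457944-45459884, minus strand) was at 65.9 CPM in WT 1, 40.0 in WT 2, 48.2 in TG 1 and 47.5 in TG 2. Here too the WT libraries lay on either side of both TG libraries, with a log2 fold change of -0.15 ± 0.26 (95% interval -0.83 to 0.53). The ratio of heavy to light chain level per kilobase of all exons was 2.62 in WT 1, 5.71 in WT 2, 4.60 in TG 1 and 4.15 in TG 2, so the lowest and highest ratios both came from wild-type mice.

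Both ferritin genes have close copies in the genome, and how reads that match several places were handled is unknown from the sources used here. The processed pseudogene Gm6977 on chromosome X, 90.5% identical to Fth1 over 524 bases, had 298 to 380 counts per library, against 7344 to 9246 for Fth1. Ftl1 had 7 listed copies, including Gm10116 at 97.3% over 930 bases and Ftl2, and none had more than 2 counts in any library. Adding the copies' counts left the log2 fold changes at 0.06 for Fth1 and -0.15 for Ftl1. This sum cannot show the effect of reads left out for matching several places, since those would be in neither count. Ftl1 also shares 355 exonic bases with Gm10252 on the other strand, and Slc11a2 shares 402 with Gm5475, which had 0 counts in all 4 libraries. On its own strand Ftl1 shares 109 exonic bases with Gm22133, which also had 0 counts in all 4. The strand setting and the handling of reads that overlap several genes are unknown. The levels of Ftl1 and Slc11a2 may therefore include reads of the overlapping genes, or lack their own reads from the shared bases.

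Slc40a1 (ENSMUSG00000025993, chr1:45908068-45926523, minus strand) encodes ferroportin, the iron exporter. It had the lowest mean level per kilobase of the 9 tested members and the widest ratio between libraries. Its level was 7.11 CPM in WT 1, 9.60 in WT 2, 30.4 in TG 1 and 5.38 in TG 2, from 117, 150, 427 and 81 counts. The transgenic male alone was high, and the transgenic female was the lowest of the 4. WT averaged 8.35 ± 1.75 CPM and TG 17.9 ± 17.7 (SD, n = 2 each), and the log2 fold change was 1.10 ± 0.79 with a 95% interval of -0.95 to 3.14 and an unadjusted p of 0.228 in edgeR. Without TG 1 the value was -0.63.

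Hamp (ENSMUSG00000050440, chr7:30942368-30944032, minus strand) encodes hepcidin, the mainly hepatic hormone that makes ferroportin leave the cell surface. It had 1 count in TG 1 and 0 in the other 3 libraries, where a count of 0 allows up to 0.199 CPM at the most. These limits cover counting error only. The near-identical Hamp2, at 93.3% over 417 bases, had 1 count in TG 2 and none elsewhere. Hepatocyte markers summed to only 3.41 to 4.78 CPM over 10 genes, and Alb, Serpina1a and Fgb had no count in any library. Hfe2 (ENSMUSG00000038403, chr3:96525172-96529210, plus strand) encodes hemojuvelin, a coreceptor for bone morphogenetic proteins (BMPs) that drives hepcidin in the liver and is also made in striated muscle. It was abundant and even, at 179 and 188 CPM in WT and 195 and 173 CPM in TG. WT averaged 184 ± 6.25 CPM and TG 184 ± 15.9 (SD, n = 2 each), and the 95% interval of the log2 fold change ran from -0.38 to 0.38.

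Hmox1 (ENSMUSG00000005413, chr8:75093621-75100589, plus strand) encodes haem oxygenase 1, the inducible enzyme that frees iron from haem. Its level was 14.1 CPM in WT 1, 8.64 in WT 2, 9.60 in TG 1 and 11.9 in TG 2, with both TG libraries inside the WT range. The log2 fold change was -0.08 ± 0.30 (95% interval -0.86 to 0.69). The constitutive enzyme, Hmox2, was nearly level, at 61.4 CPM in WT 1, 61.3 in WT 2, 62.5 in TG 1 and 62.6 in TG 2.

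The iron regulatory proteins are encoded by Aco1 (IRP1, also a cytosolic aconitase when it holds an iron-sulfur cluster) and Ireb2 (IRP2, which is degraded when iron is plentiful). Aco1 (ENSMUSG00000028405, chr4:40143081-40198338, plus strand) measured 51.9 and 59.1 CPM in WT, and in TG 55.2 and 57.5 CPM. These 4 values stayed within a factor of 1.14, and the log2 fold change was 0.02 ± 0.14 (95% interval -0.35 to 0.39). Ireb2 (ENSMUSG00000032293, chr9:54863789-54912530, plus strand) was at 45.5 CPM in WT 1, 65.4 in WT 2, 70.6 in TG 1 and 43.1 in TG 2. The WT female and the TG male were high and the other 2 mice low, and the log2 fold change of TG over WT was 0.04 ± 0.31 (95% interval -0.77 to 0.84).

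The members differed in how far they ranged over the 4 libraries. The highest library was at least 2 times the lowest for Tfrc (3.25) and Slc40a1 (5.65), the genes of the entry and exit steps, so for 2 of 9 members against 17.2% of all tested genes. A ratio of at least 1.5 was reached by Ftl1, Hmox1 and Ireb2 as well, which makes 5 of 9, against 38.6% of all genes. Fth1 reached 1.32, Slc11a2 1.20, Aco1 1.14 and Hfe2 1.13. The ratio of Tfrc to Slc40a1 in CPM was 22.2 in WT 1 and 26.2 in WT 2, but 4.32 in TG 1 and 79.4 in TG 2. The 2 transgenic mice therefore lay on opposite sides of the wild-type mice in this ratio.

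The same mice can be compared as 35-week males with 19-week females. Of the 9 tested members, 4 had male and female libraries that did not overlap, against 31.5% of all tested genes, and these were Tfrc, Slc11a2 and Aco1, lower in both males, and Ftl1, higher in both. No member passed an adjusted p of 0.05 in edgeR (0 of 9, against 0.0282% of all genes), and 1 had an unadjusted p under 0.05 (background 3.62%). The median log2 difference over the members was 0.05, with 5 of 9 above 0, and that over all tested genes was 0.01.

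Tfrc was the member with the unadjusted p under 0.05. It stood at 158 and 131 CPM in the males and at 252 and 427 CPM in the females. Its log2 difference, male over female, was -1.23 ± 0.29 with a 95% interval of -1.98 to -0.48, or 2.35-fold lower in males. In edgeR the unadjusted p was 0.00955, rank 91 of 14189 genes, and the adjusted p was 0.999. DESeq2 gave an adjusted p of 0.0105 for the same gene. With any 1 library left out, the log2 difference stayed between -1.57 and -0.80, and it was -1.57 without WT 2.

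Beside this difference, erythroid markers were higher in the males (transferrin receptor is abundant in red cell precursors). The 10 markers summed to 924 CPM in WT 1 and 408 in TG 1, and to 356 in WT 2 and 317 in TG 2, and Hba-a2 was at 0 in all 4. All 7 that could be tested were higher in males, with a median log2 difference of 1.39 and none past the adjusted threshold. The median was 0.386 without WT 1 and 2.02 without TG 1, and Bpgm and Fech were lowest in TG 1 (19.1 and 152 CPM). The direction of the list is the opposite of the one seen for Tfrc. The part of the erythroid transcripts in the Tfrc difference was not tested.

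For the other members the interval of the male over female difference included 0. Ftl1 was at 65.9 and 48.2 CPM in the males and 40.0 and 47.5 CPM in the females, with the TG pair nearly equal, and its log2 difference was 0.38 ± 0.20 (95% interval -0.15 to 0.91). Slc40a1 had the largest estimate in size, 1.32 ± 0.73, but its interval ran from -0.60 to 3.24, and without TG 1 the value was -0.08. Slc11a2 at -0.18 ± 0.12 and Aco1 at -0.12 ± 0.12 were separated between the sexes by small steps. Fth1, Hfe2, Hmox1 and Ireb2 overlapped between males and females.

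**Figure D2:**
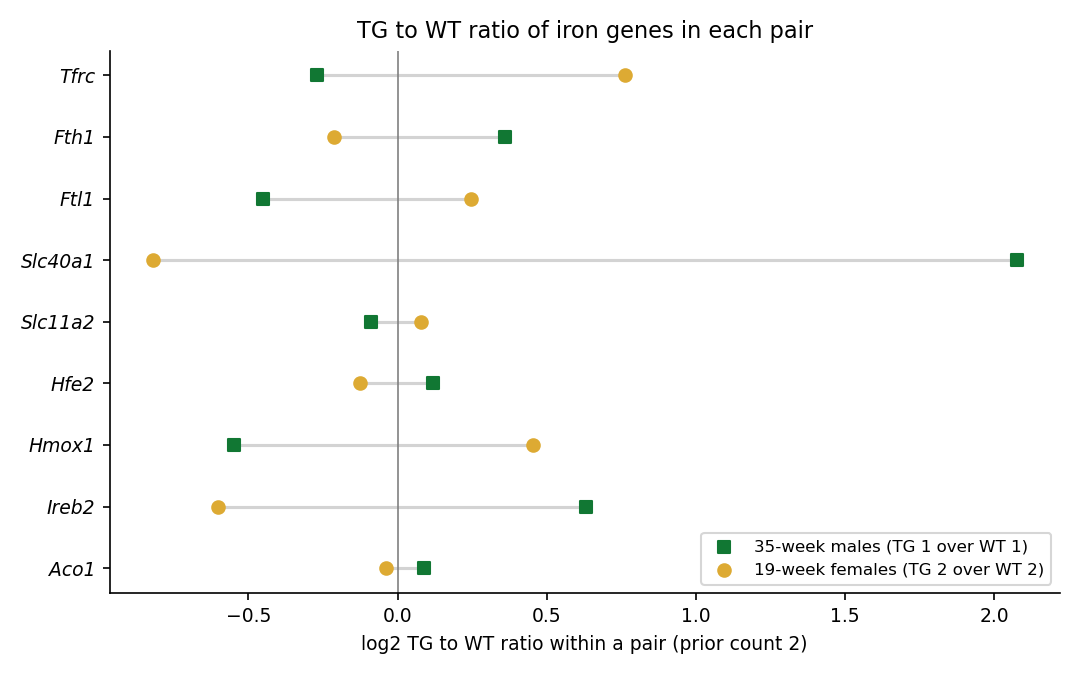
Log2 ratio of the TG to the WT library in each pair, 1 point for the 35-week males and 1 for the 19-week females, for the 9 tested members. The points lie on opposite sides of 0 for all 9, widest apart for Slc40a1 (2.07 in males, -0.82 in females).

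The TG to WT ratio pointed in opposite directions in the male and the female pair for all 9 tested members, and did so for 64.7% of all tested genes. Slc40a1 was 4.21-fold the wild-type level in the male pair and 0.566-fold in the female pair. Tfrc went the other way, at 0.830-fold in males and 1.70-fold in females. Ireb2 had log2 ratios of 0.63 in males and -0.60 in females, and Hmox1 of -0.55 and 0.46. The ferritin chains were opposed to each other as well, with Fth1 at 0.36 in males and -0.21 in females and Ftl1 at -0.45 and 0.25. For Slc11a2, Hfe2 and Aco1 both log2 ratios lay between -0.13 and 0.12, so their signs rest on very small differences.

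Another edgeR fit, chosen with earlier results of these data known, tested if the male and the female pair differed in this ratio. With 1 library per genotype and sex, this could be fitted only with the product of genotype and pair as the sole term, which amounts to setting WT 2 and TG 1 against WT 1 and TG 2. Exchanging the genotype labels of the males, or of the females, would turn this contrast into the genotype contrast. It took up 63.3% of the variance among the libraries over the tested genes, against 12.8% for genotype and 23.9% for males over females, and 386 genes were called in it. The genotype labels were not checked against the transgene's own RNA here. The fit's log2 value is the male minus the female TG to WT ratio only as far as genotype and pair add nothing of their own. By its coding, the value is 2 times the log2 difference between the 2 sets of libraries, unlike the values of the other fits. Ireb2 passed the threshold (1 of 9 members, higher, against 0.352% of all tested genes higher and 2.72% in either direction). Unadjusted p was under 0.05 for 3 of 9 members, against 16.2% of all genes. The 2 sets of libraries did not overlap for 5 of 9 members, Fth1, Slc40a1, Hfe2, Ireb2 and Hmox1, against 47.5% of all genes, so separation in this contrast was about as frequent among the members as elsewhere. The median over the members was 0.13, with 5 of 9 above 0, and that over all genes was 0.01.

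Ireb2 was at 70.6 and 65.4 CPM in TG 1 and WT 2 and at 45.5 and 43.1 CPM in WT 1 and TG 2, with little spread inside each set. The log2 difference of the ratios was 1.24 ± 0.22 (95% interval 0.70 to 1.77), with an adjusted p of 0.0489. The size changed little when any 1 library was left out, from 1.13 to 1.34, but the call was lost each time (adjusted p of 0.0812 to 0.306), and limma-voom gave 0.0607. Slc40a1 had a larger and less certain value, 3.34 ± 1.05 (95% interval 0.77 to 5.91, adjusted p 0.205). It fell to 1.23 without TG 1 and reached 4.55 with an adjusted p of 0.0195 without WT 2. Hmox1 was lower in the same contrast, at -1.02 ± 0.35 (95% interval -1.88 to -0.17, adjusted p 0.231). Tfrc, at -1.22 ± 1.00, was not separated, and its value turned to 0.55 without TG 2.

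Macrophage, lymphocyte and interferon-response transcripts followed the same contrast, in which 336 of all 14189 tested genes were called lower. Of the 18 macrophage markers, 12 were called lower in WT 2 and TG 1 than in WT 1 and TG 2, with the sums given above, and no marker was at 0 in all libraries. That count was 5 without WT 1 and 9 to 11 without any other library. Of 10 lymphocyte markers tested, 8 were called lower, with a median log2 value of -7.85, which is 2 times the log2 difference between the sets. The list of 13 summed to 58.7 CPM in WT 1 and 78.8 in TG 2, but to 8.19 in WT 2 and 9.82 in TG 1. Leaving out WT 1 reduced the calls to 1 and leaving out TG 2 to 2, while 6 or 7 were made when WT 2 or TG 1 was left out. Nppa, the atrial natriuretic peptide gene, was also called lower, at -3.21 ± 0.41 (adjusted p 0.0224). The call of Nppa was lost without WT 1 and without TG 2. Of 14 interferon-response genes, 9 were called lower (4 without WT 1, 7 to 11 without any other library), and the summed level of the list was 1578 to 2064 CPM in WT 1 and TG 2 against 355 to 386 CPM in the other 2. B2m, the light chain of class I antigen-presenting molecules, was at 979 CPM in WT 1, 188 in WT 2, 177 in TG 1 and 915 in TG 2. Hmox1, which macrophages are known to express, was on the high side with these genes, and Slc40a1, also known from macrophages, was on the low side. The part of these immune transcripts and of Nppa in the values of Ireb2, Slc40a1 and Hmox1 was not tested.

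**Figure D3:**
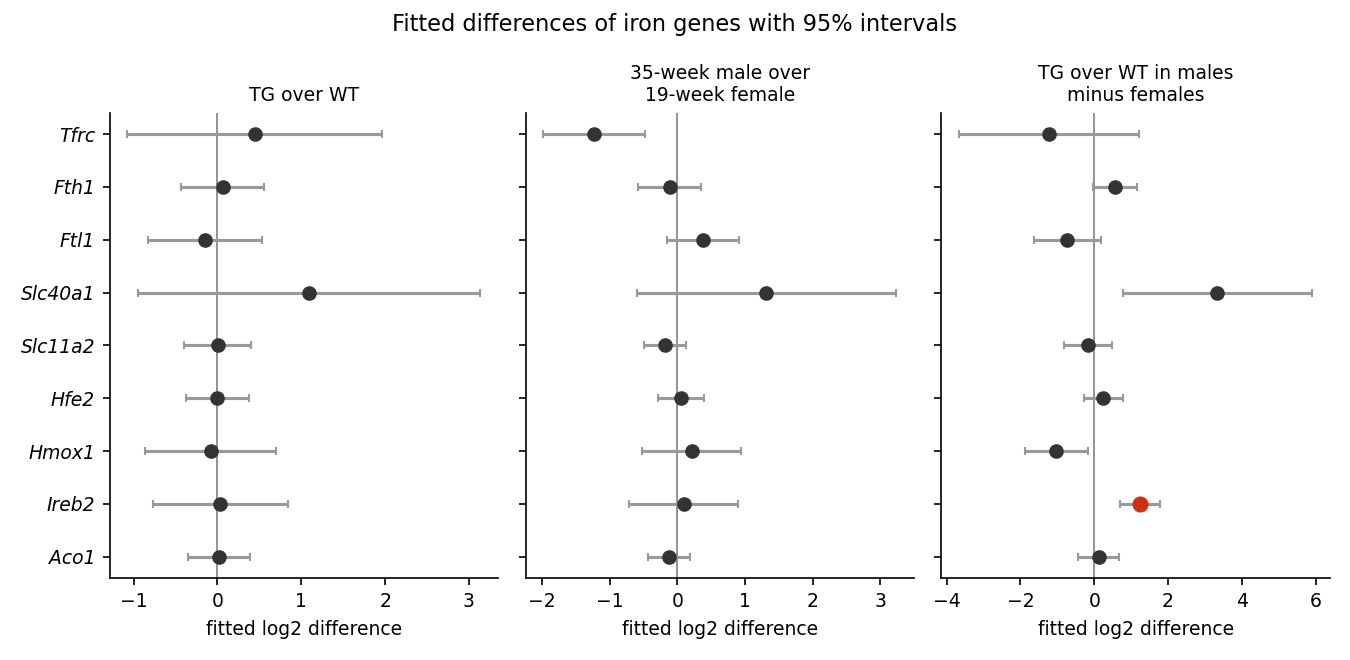
Log2 value of each tested member in the 3 edgeR fits, with 95% intervals as error bars and red points where the adjusted p was under 0.05. Values of the third fit are differences between ratios and cannot be compared in size with those of the other fits. Every interval of TG over WT includes 0, the interval of Tfrc lies below 0 for males over females, and Ireb2 is the only red point.

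The other genes of the pathway were read from lists by role, as a setting for the members. Among 13 further uptake genes, 10 were tested, and 6 were higher in TG, none past the threshold, with a median log2 fold change of 0.08. In males over females 7 of the 10 were higher, none past the threshold, with a median of 0.27 against 0.01 over all tested genes. In the third fit 1 of the 10 was called: Lrp1, a large endocytic receptor that takes up haem bound to hemopexin among many other ligands, at 280 CPM in WT 1, 549 in WT 2, 563 in TG 1 and 306 in TG 2. Its log2 value was 1.85 ± 0.22 with an adjusted p of 0.0192. The list had 0 calls without WT 1 or without TG 2, and 1 without either of the other libraries. The haemoglobin scavenger receptor Cd163 was lowest in TG 2, at 5.98 CPM against 22.7 in WT 1 and 22.6 in WT 2, and passed no test. Slc39a14, a zinc transporter that also carries free iron, was at 97.8 and 101 CPM in the males and 135 and 128 CPM in the females, the direction seen for Tfrc, with an adjusted p of 0.999. Cd163 and Slc39a14 were picked after their values were seen.

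Of 9 further storage and export genes, 7 were tested and none was called in any of the 3 comparisons, though without WT 2 the third fit called 1, higher. The 2 with the smallest p in TG over WT were Cp, the ferroxidase ceruloplasmin that works beside ferroportin, and Pcbp3, of a family of which other members deliver iron to ferritin. Cp was at 176 CPM in WT 1, 104 in WT 2, 194 in TG 1 and 177 in TG 2, with a log2 fold change of 0.41 ± 0.28. WT 2 alone was low. Pcbp3 had 1.40, 2.62, 2.35 and 2.79 CPM in the same order, and a log2 fold change of 0.35 ± 0.45. The known ferritin iron chaperones Pcbp1 and Pcbp2, shown for comparison after their values were seen, were split into the same 2 sets of libraries as Ireb2, with 43.3 and 36.8 CPM of Pcbp1 in WT 2 and TG 1 and 24.1 and 26.2 CPM in WT 1 and TG 2. Pcbp2 had 73.3 and 92.8 CPM against 51.3 and 47.7 CPM. Neither passed the adjusted threshold, the smallest adjusted p of the list being 0.0620. Fbxl5, the ubiquitin ligase subunit that targets IRP2 for degradation, stayed at 69.7 to 82.3 CPM.

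Most genes that control hepcidin had enough counts to be tested, while Hamp itself did not. Of 20, 16 were tested, 9 were higher in TG with a median of 0.03, and none was called. In the third fit Socs3, an inhibitor of cytokine signalling induced by STAT3, was called lower, at 10.6 CPM in WT 1, 5.37 in WT 2, 4.55 in TG 1 and 10.8 in TG 2 (log2 value -2.21 ± 0.37, adjusted p 0.0427). The list had 0 calls with any 1 library left out. Bmp6, the ligand that raises hepcidin through hemojuvelin in the liver, was at 18.1 and 16.95 CPM in WT and, in TG, 21.2 and 23.97 CPM. These groups did not overlap, but its adjusted p in edgeR was 1.00, and the gene was singled out after its values were seen.

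All 24 genes of mitochondrial iron import and iron-sulfur cluster assembly were tested, and 19 were lower in TG, none of them called, with a median of -0.08 on the log2 scale. The smallest p values belonged to Hscb, a cochaperone of cluster transfer, at -0.32 ± 0.21, and to Fdx1l, a mitochondrial ferredoxin, at -0.22 ± 0.14. For comparison, 47.5% of all tested genes were higher in TG. In males over females 11 of the 24 were higher and in the third fit 10, again with none called.

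Of 20 genes of haem synthesis, breakdown and transport, 17 were tested, and 4 were higher in TG with a median of -0.07 and none called. Alad, which joins the first intermediates of haem synthesis, was called in the third fit, with 52.6 CPM in WT 1, 78.6 in WT 2, 78.2 in TG 1 and 51.0 in TG 2 (log2 value 1.20 ± 0.20, adjusted p 0.0442), a call that was lost with any 1 library left out. Its pattern over the 4 mice had the same order of sets as Ireb2. Alas1, the rate-limiting enzyme of haem synthesis outside red cells, was at 171 and 176 CPM in the males and 249 and 249 CPM in the females, a log2 difference of -0.52 ± 0.12 with an adjusted p of 0.999 in edgeR. Its erythroid counterpart Alas2 was higher in the males, at 35.9 and 13.9 CPM against 10.1 and 6.84 CPM. Alas1 and Alas2 were chosen after their values were seen.

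The factors that control Hmox1, NRF2 and BACH1, and their other targets gave no call in any comparison, with 13 of 14 genes tested. In TG over WT, 6 were higher and the median was -0.04. The smallest p values belonged to Nfe2l2, which encodes NRF2, at 0.14 ± 0.16, and to the small MAF partner Mafg, at 0.18 ± 0.17. In males over females 4 of the 13 had an unadjusted p under 0.05 in edgeR, against 3.62% of all tested genes. All 4 were higher in males, and none was below an adjusted p of 0.999. Among these, Gclm, a subunit of the enzyme of glutathione synthesis, was at 33.1 and 35.5 CPM in the males and 20.98 and 21.5 CPM in the females. It was named after its values were seen.

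**Figure D4:**
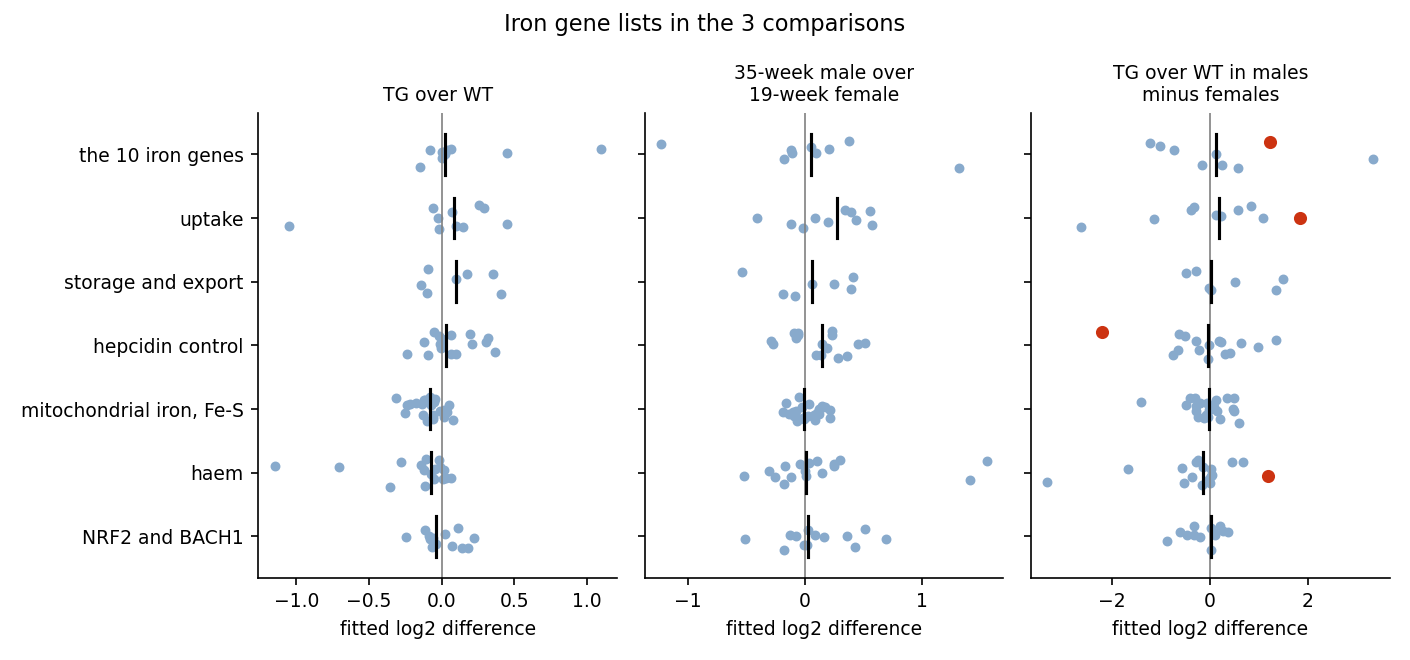
Log2 values of the genes of each list in the 3 edgeR fits, 1 dot per tested gene, with black ticks at list medians and red dots where the adjusted p was under 0.05. Values of the third fit are differences between ratios and cannot be compared in size with those of the other fits. Medians of the iron lists lie between -0.13 and 0.27 in the 3 fits. The highest is that of uptake in males over females, against 0.01 over all tested genes. The interferon-response genes, not drawn here, had a median of -4.76 in the third.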

How the data were processed

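The authors deposited raw read counts per Ensembl gene and the same genes as a normalized signal, in which each library's counts are divided by its own factor (0.917 to 1.08). Per the submitters' processing notes reads passed through STAR 2.3.0, HTSeq 0.6.1, DESeq, CASAVA 1.8.2 and FastQC 0.10.0 (listed in no order), and the build was mm10. Neither the annotation release, the strand setting nor the handling of reads with several matches is given in the sources used here. A kit named in the labels, TruSeq Stranded Total RNA, gave 1 library per mouse for the HiSeq2000.

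Tests on the counts used edgeR 4.0.16 under R 4.3.3 (filterByExpr with a minimum count of 10, TMM factors of 0.934 to 1.06, quasi-likelihood test, Benjamini-Hochberg adjustment over 14189 genes). Each of the 3 contrasts was fitted alone to all 4 libraries, with 2 residual degrees of freedom. Standard errors are Wald errors from the fitted quasi-dispersions. Pair ratios used a prior count of 2. Fits were checked on simulated data. Alternatives were other scalings, no filter, DESeq2 1.42.0, limma-voom (limma 3.58.1), a replicate block and leaving out each library. Positions, transcripts, copies (at least 90% identity over 200 bases) and overlaps came from GENCODE vM21.

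The members, the lists and the contrast between the male and the female pair were chosen with earlier results of these data known. All 10 members are named. For each list, genes past the threshold were named (at most 5 per comparison), or else the 2 with the smallest p in TG over WT; 1 gene named by this rule is not reported here. P-values measure only the spread among these 4 mice. Same-numbered mice shared sex, age and parents, which pairs them by label, but their deviations from the group means correlated at -0.449 across genes.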

Additional observations from a re-analysis of the deposited data

Results flagged for a closer look

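The difference of the TG to WT ratio between the male and the female pair was flagged for 8 of the genes reported here. All 8 passed its test in edgeR with an adjusted p under 0.05, in a contrast chosen with earlier results of these data known. Nppa and the macrophage, lymphocyte and further interferon-response genes called in the same fit are given above and are not among them. Of the 8, the only member was Ireb2, at 1.24 on the log2 scale of that fit. Among the other iron genes Lrp1 stood at 1.85, Alad at 1.20 and Socs3 at -2.21. The remaining genes were of the interferon response, with B2m at -4.75, Psmb8 at -5.50, Psmb9 at -4.50 and Gbp3 at -5.93. Psmb8 and Psmb9 encode immunoproteasome subunits, and Gbp3 an interferon-induced GTPase. In each case WT 2 and TG 1 lay on one side and WT 1 and TG 2 on the other.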

How the results depend on the processing

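For TG over WT, 0 genes were called in edgeR (99 with an unadjusted p under 0.05), 3 in DESeq2, 0 with the replicate block and 0 to 8 with 1 library left out, the 8 without WT 1. The pairs went in opposite directions, so the crossed pairing (WT 1 with TG 2), added after seeing the data, was also run and called 0. For males over females, 4 genes were called, 7 with no filter, 33 in DESeq2, 0 with genotype as a covariate (added after seeing the data) and 0 to 9 with 1 library left out, the 9 without TG 2. For the difference between pairs, 386 were called, 908 with no filter, 703 in DESeq2, 261 in limma-voom and 44 to 366 with 1 library left out, with 44 without WT 1 and 110 without TG 2. The replicate block changed no member's call. It lowered the log2 fold change of TG over WT from 1.10 to 0.66 for Slc40a1 and from 0.45 to 0.25 for Tfrc, where limma-voom gave 0.61 and 0.25. The block gave Slc11a2 a log2 fold change of -0.00334, where upper-quartile scaling gave -0.00955 and limma-voom -0.00197, against 0.00192. Hfe2 was at 0.00236 with DESeq2's size factors in edgeR and 0.00232 in DESeq2, against -0.00077.

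With 1 library left out, log2 values of TG over WT turned sign for all 9 members: Tfrc from -0.64 to 1.06, Fth1 from -0.12 to 0.28, Ftl1 from -0.46 to 0.26, Slc40a1 from -0.63 to 1.86, Slc11a2 from -0.13 to 0.13, Hfe2 from -0.0891 to 0.0858, Hmox1 from -0.39 to 0.32, Ireb2 from -0.36 to 0.35 and Aco1 from -0.0675 to 0.12. For males over females 5 did: Fth1 from -0.31 to 0.0590, Slc40a1 from -0.0777 to 2.02, Hfe2 from -0.0111 to 0.11, Hmox1 from -0.0944 to 0.46 and Ireb2 from -0.26 to 0.42. For the difference between pairs 3 did: Tfrc from -2.32 to 0.55, Slc11a2 from -0.36 to 0.0117 and Aco1 from -0.0188 to 0.27. Slc40a1 gained a call there with no filter (adjusted p 0.0213), in DESeq2 (0.00978) and without WT 2 (0.0195), where Ireb2 had adjusted p values of 0.0115 to 0.0607 over settings with all libraries. The cause of these changes was not tested. Hamp, with 1 count in all, lay at the detection limit, and the effect of depth on the other members was not tested.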
